A study of Coregonus migratorius and Coregonus peled with 8 samples.

Results

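Acute warming of Baikal omul larvae (Coregonus migratorius, a coldwater whitefish of the salmon family) was described by a pair of messenger RNA libraries out of the 8 of the series. The acute library was made from larvae brought rapidly to 21 °C and held there for 1 h, and the control library from unheated larvae of the same rearing. Both groups were kept in aquaculture for 1.5 months at 9 to 12 °C before the heating, per the series' design text. Each library was made from the pooled RNA of 12 to 16 whole larvae, so the comparison has 1 library a side and no replicate check. The other omul libraries came from chronically stressed larvae (21 °C for 24 h, 3 times a week, after the same rearing) and from larvae taken from nature, with no heating or rearing time given, and the same 4 groups exist for the peled (Coregonus peled). The libraries were named by their labels and genes were compared by log2((acute + 1)/(control + 1)) of the deposited values, which are normalized expression signals of unstated unit.

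In fishes, as in other animals, a sudden rise in temperature is known to switch on the heat shock response, in which the transcription factor HSF1 activates genes for chaperones that hold or refold damaged proteins. Such transcripts are known to accumulate quickly during heating and to decline after it. Salmonid fishes also carry many duplicated genes from an ancestral doubling of the genome, and an assembly made without a genome may split or merge such copies. The files identify genes by Trinity assembly identifiers alone and do not pair them with gene names. Neither chaperones nor markers of any tissue could therefore be looked up, and genes of 1 assembly component, which may share reads, are counted with that uncertainty.

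The acute and control libraries listed the same 2184 genes. Their values summed to 118972 in acute and 112336 in control omul, with medians of 8.70 and 9.09, and sequencing depth is unknown. In acute or control omul, or in both, 1190 genes (54.5%) reached a value of 10, and the other 994 lay below it in both. All counts refer to this deposited list, whose rule of selection is not stated and in which no gene stayed below 8.20 in all 8 libraries.

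Most of the 1190 genes had similar values in the acute and control libraries, and few stood far apart. The log2 ratio lay within 2-fold for 968 genes (81.3%) and within 1.5-fold for 739 (62.1%). At least 2-fold apart were 222 genes (18.7%), of which 97 were higher in acute omul (8.15%) and 125 lower (10.5%). The median ratio was -0.06, the interquartile range ran from -0.51 to 0.36, and the extremes were -7.41 and 5.73. In whole larvae, fewer cells of a type and less RNA per cell cannot be told apart. No pair of libraries from the same group exists, so the ratio expected between unheated pools is not known. The counts moved by more than 1.5-fold with the minimum value, which also changed how many genes they were taken over. They were 53 higher and 66 lower of 703 genes at a minimum of 20, and 163 and 201 of 2184 with none. With a pseudocount of 5 the lower genes numbered 76 of the 1190.

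**Figure D1:**
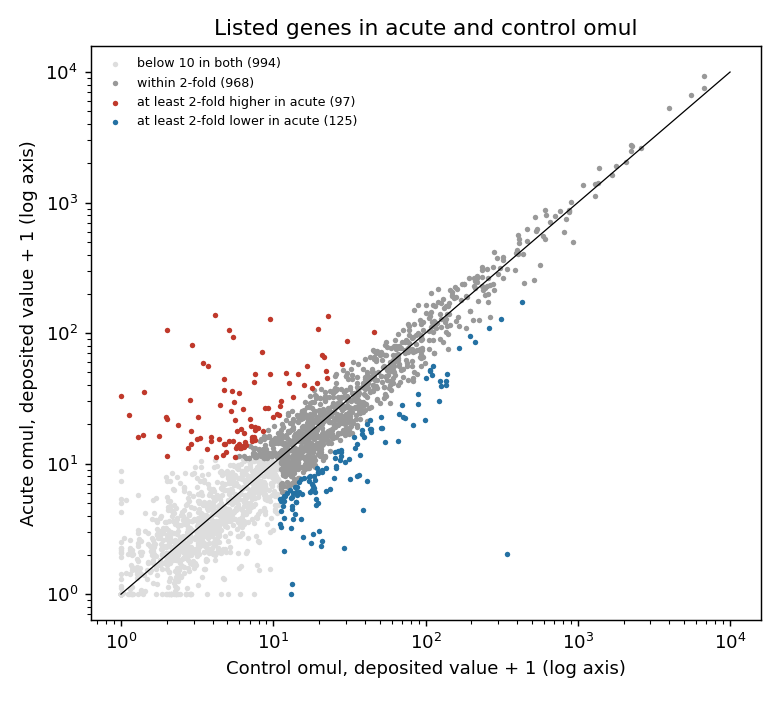
Value of each listed gene plus 1 in the acute (vertical) against the control omul library (horizontal), both on log axes, with 1 point per gene and the line of equal values. The 97 higher genes lie above the line mostly at low control values, and the 125 lower genes mostly lie closer to it, the farthest being at 1.02 in acute and 343 in control omul.

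The balance of directions turned with the size of the difference. Lower genes were the more numerous at 2-fold, but at 4-fold 41 genes were higher (3.45%) and 22 lower (1.85%). At 8-fold 20 were higher (1.68%) and 7 lower (0.588%), and at 16-fold 9 were higher (0.756%) and 1 lower (0.084%). Higher genes thus made up 43.7% of those past 2-fold, 65.1% past 4-fold and 74.1% past 8-fold. Lower genes were mostly shallow: 103 of the 125 lay between 2- and 4-fold, against 56 of the 97 higher genes. The 2-fold boundary fell within a continuous run of values. The higher gene just inside it was at 10.3 in acute and 4.64 in control omul and the one just outside at 35.6 and 17.5, while on the lower side these genes were at 54.6 and 110.4 and at 131.7 and 264.3.

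**Figure D2:**
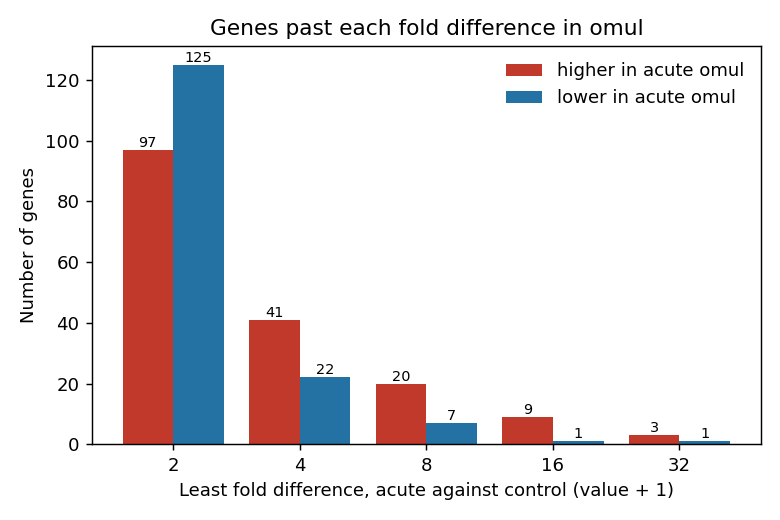
Number of genes at least 2-, 4-, 8-, 16- and 32-fold higher (left bar) or lower (right bar) in acute than in control omul, among the 1190 genes that reached 10 in either library. Lower genes lead at 2-fold (125 against 97 higher) and higher genes at each larger fold.

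By the rule for naming, the largest ratio belonged to TRINITY_DN79_c0_g3. It was at 105 in acute and 0.99 in control omul, a log2 ratio of 5.73. It was also high in the remaining omul libraries, at 141 in chronic omul and 506 in nature, so that the control stood alone as the low library of this species. In peled it was high throughout, at 704 in acute, 639 in chronic, 298 in nature and 795 in control larvae. The next was TRINITY_DN15783_c0_g1, at 138 in acute and 3.17 in control omul, a log2 ratio of 5.05. Here the acute library stood apart from the others, since the gene was at 20.8 in chronic omul and 2.19 in nature. In peled, too, acute was the highest and chronic the next, with 530.2 in acute, 34.4 in chronic, 3.94 in nature and 2.94 in control larvae.

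On the lower side the smallest ratio was that of TRINITY_DN75747_c0_g1, at 1.02 in acute and 343 in control omul, a log2 ratio of -7.41. It was at 1.05 in chronic omul too and at 927 in nature, so both heated omul pools had almost none of it. In peled it was at 1249 in acute, 1678 in chronic, 985 in nature and 1323 in control larvae, with no low library. TRINITY_DN133561_c0_g3 was listed at 0 in acute omul and at 12.1 in control omul, for which no fold is given. It was listed at 0 in chronic omul and at 1.12 in nature, and in peled at 0 in the acute, chronic and control libraries and at 2.91 in nature. Of these 4 genes, TRINITY_DN15783_c0_g1 alone was set apart by its acute library in omul. A change from 0 was otherwise rare among genes of any level. Above 0 in acute and listed at 0 in control omul were 17 genes, and the reverse held for 38, with 1 gene of each kind reaching a value of 10.

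Differences were spread over low and moderate levels and scarce among abundant transcripts. In the range of 10 to 20 (the value in the higher library) 9.03% of 487 genes were at least 2-fold higher and 12.1% lower, and between 50 and 200 these shares were 7.66% and 10.6% of 235 genes. Among the 96 genes at 200 or more, 0 were higher and 5 lower (5.21%). The abundant genes nonetheless leaned towards acute omul by small amounts, the median log2 ratio being 0.12 there and -0.16 in genes at 10 to 20. Of the 10 most abundant genes 9 were higher in acute omul, with ratios of -0.027 to 0.46, and they summed to 43276 in acute and 36227 in control omul. The most abundant one was at 9286 in acute, 7534 in chronic, 9093 in nature and 6748 in control omul. The listed values summed to more in nature (154860) than in acute (118972) or control omul (112336). The level in nature is therefore a smaller share of the summed listed values than the similar level in acute omul. Shares of the whole libraries are not known. The excess in acute over control omul of the 10 most abundant genes, 7048, was larger than that of all listed genes together (6636). The 10 highest values of each library made up 36.4% of the summed value in acute and 32.2% in control omul, and the part of this in the many shallow lower genes was not tested. Summed over the 97 higher genes the difference of acute minus control was 2596, and over the 125 lower genes it was -3993. The signs of both sums were set by the choice of genes.

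**Figure D3:**
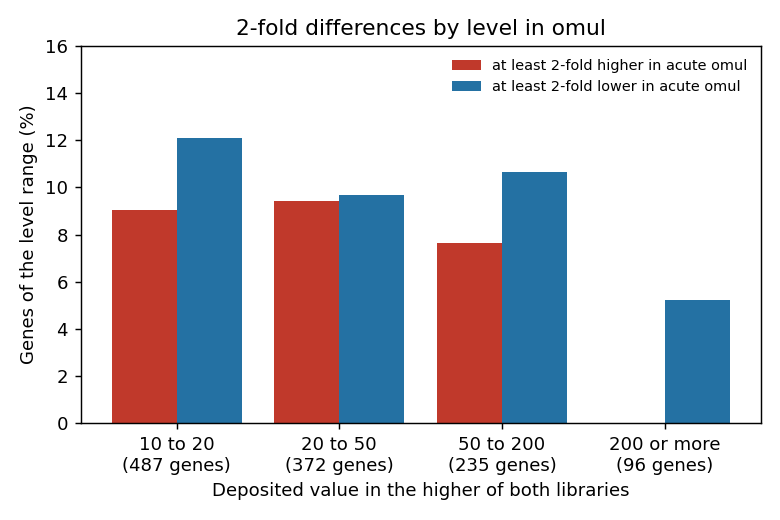
Share of genes (%) at least 2-fold higher (left bar) or lower (right bar) in acute than in control omul, by the deposited value in the higher of both libraries. The share falls to 0% higher and 5.21% lower in the 96 genes at 200 or more.

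Genes of 1 assembly component mostly had similar ratios, but the spread between genes of different components was not computed. Of all 1190 genes 62.1% lay within 1.5-fold in acute against control omul, so similar ratios were frequent in any case. Among genes at the minimum value 50 components held 2 or more, 105 genes in all, and the median spread of the log2 ratio within a component was 0.24. All genes were at least 2-fold higher in 6 of these components and at least 2-fold lower in 3, while 0 components held both a higher and a lower gene. Over all 1190 genes 8.15% were higher and 10.5% lower. Few of the 50 components would hold both in any case, so the 0 says little. The 97 higher genes came from 90 components and the 125 lower genes from 121, so that shared components make up a small part of either count at 2-fold. They weigh more at larger folds: with values summed over components, 14 were higher and 7 lower at 8-fold. The spread reached 3.79 in 1 component, so that genes of a component need not have the same ratio.

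The 97 and the 125 genes were also read in the omul libraries that had no part in choosing them. The 97 higher genes, whose medians were 21.9 in acute and 5.06 in control omul, were at a median of 10.98 in chronic omul and 5.63 in nature. The interquartile range was 2.40 to 21.4 in nature and 3.17 to 8.26 in the control. The control values were limited by the choice of genes, so no likeness of nature to the control can be read from them. The 125 lower genes, at medians of 6.99 in acute and 21.3 in control omul, were at 10.6 in both chronic omul and nature. Their control values were high by the choice of genes, so a lower level in another library says little about that library. The 1190 genes together had medians of 20.1 in acute, 19.2 in chronic, 17.2 in nature and 20.1 in control omul. The log2 ratio of chronic to nature, which uses neither of the libraries compared, had a median of 0.40 over the 97 genes and 0.05 over the 125, against 0.23 over the 1190. Chronic lay above nature in 56.7% of the 97 genes and 50.4% of the 125, against 57.4% of the 1190, so by this share the higher genes were close to all genes. Acute and chronic omul are set against the same control library. At least 2-fold apart were 21.6% of genes in chronic against control omul, 14.2% in acute against chronic omul and 54.8% in nature against control omul, beside the 18.7% of acute against control.

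**Figure D4:**
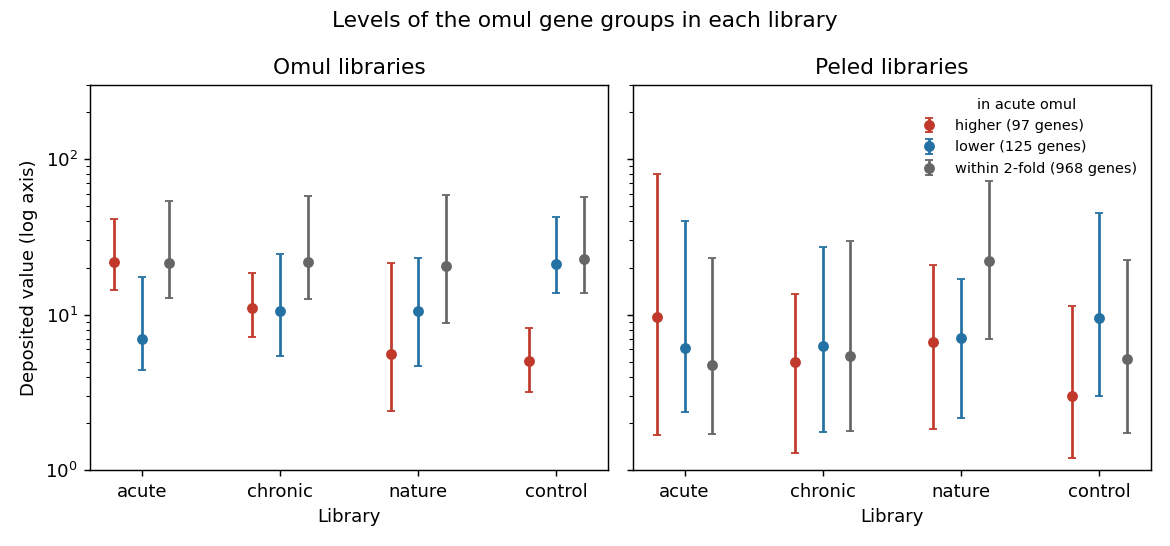
Median deposited value (point) and interquartile range over the genes (bar), on a log axis, for the genes higher, lower or within 2-fold in acute against control omul, in the 4 omul (left) and 4 peled libraries (right). The acute and control omul points are set by the choice of genes. The 125 lower genes stand at 10.6 in chronic omul and in nature, and the 97 higher genes at 9.63 in acute and 3.00 in control peled.

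The peled libraries shared no larvae with the choice of genes. There a 2-fold higher acute value was more frequent among genes at least 4-fold higher in omul than among those 2- to 4-fold higher. Past 4-fold the frequency did not rise steadily, and genes of a shared assembly component were counted separately. Without a minimum in peled, 9.24% of the 1190 genes were at least 2-fold higher in acute than in control peled and 6.64% lower. Of the 56 genes 2- to 4-fold higher in omul 16 were at least 2-fold higher in peled, of the 21 at 4- to 8-fold 12, of the 11 at 8- to 16-fold 7, and of the 9 at 16-fold or more 5. The medians of the peled log2 ratio in these classes were 0.25, 1.66, 4.89 and 4.79. The classes also differed in how many genes could be read in peled, since 21 of 56, 13 of 21, 8 of 11 and 7 of 9 reached a value of 10 there. Of the 103 genes 2- to 4-fold lower in omul 19 were at least 2-fold lower in peled and 6 higher, and of the 22 genes at 4-fold or more 7 were lower and 1 higher. The difference between higher and lower genes was not tested.

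The 20 genes at least 8-fold higher in acute omul fell into groups with no gene between them in peled. In 12 genes, from 9 assembly components, the peled log2 ratio was 4.69 to 7.08, and in the other 8 it was -0.95 to 0.04. The 12 genes had medians of 56.3 in acute and 2.60 in control omul and of 193 in acute and 2.95 in control peled, and each was below its acute value in nature, with nature values of 0.22 to 10.3. Their acute values were high by the choice of genes, so a lower level in nature says little about that library. TRINITY_DN15783_c0_g1 belongs to these 12 genes. The 8 genes had medians of 22.2 in acute and 0.89 in control omul, were spread from 0 to 506 in nature, and 3 of them were at or above their acute value there. TRINITY_DN79_c0_g3 belongs to these. The median acute omul value was lower in the 8 genes than in the 12, so the counts in nature are not on equal terms. Of the 8 genes 3 reached a value of 10 in acute or control peled, and the other 5 lay below it in both. In omul the median log2 ratio was 3.83 in the 12 genes and 3.99 in the 8. The groups were formed after their values had been seen.

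Read from the other species, the genes at least 16-fold higher in acute peled were all higher in acute omul, which did not hold at smaller bounds. Of 1216 genes that reached 10 in acute or control peled, 16 were at least 16-fold higher in acute peled (1.32%). Their log2 ratio in omul ran from 2.43 to 5.05, so each was at least 4-fold higher in acute omul. The share at least 4-fold higher was 3.45% over the 1190 genes at the minimum value in omul, which is another gene set than the 1216. Their medians were 39.5 in acute and 2.95 in control omul and 193 in acute and 1.55 in control peled. The 16 genes came from 12 components. They include all 12 genes of the group with high peled ratios described above, so both readings largely rest on the same genes. The gene next below the 16-fold bound had a peled log2 ratio of 3.999 and was below the minimum value in omul. At a bound of 8-fold in peled, 29 genes were chosen, of which 8 were below the minimum value in omul. Of the other 21, 20 were at least 2-fold higher in omul, 1 lay within 2-fold and 0 were lower. At a lower bound of 4-fold in peled, 54 genes were chosen (4.44%), of which 25 were below the minimum value in omul. Of the other 29, 24 were at least 2-fold higher in omul, 5 lay within 2-fold and 0 were lower. The 29 genes chosen at 4-fold that reached the minimum value in omul had medians of 33.6 in acute and 4.44 in control omul. Most thus reached the minimum value through the acute library, which favours higher genes in this count. Over all 54 genes, without a minimum in omul, the omul log2 ratio had a median of 1.55 and ran from -1.43 to 5.05. For comparison, of all 518 genes at the minimum value in both species, 49 were at least 2-fold higher and 65 lower in omul.

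**Figure D5:**
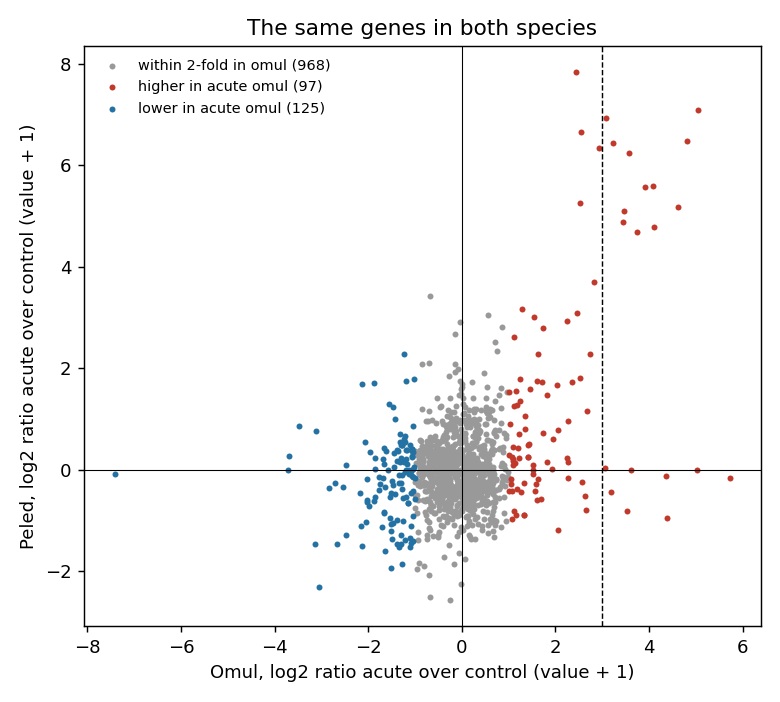
Log2 ratio of acute over control in peled (vertical) against the same in omul (horizontal) for the 1190 genes at the minimum value in omul, with the 8-fold line of omul dashed. Right of that line 12 genes lie between 4.69 and 7.08 in peled and 8 between -0.95 and 0.04.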

How the data were processed

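RNA of whole larvae was pooled by group and its poly(A) fraction was sequenced (Illumina NovaSeq), per the labels' protocols. The authors deposited 1 value per gene and library, a normalized expression signal whose unit and scaling are not stated. The submitters' processing notes list edgeR 4.0.3 and Trimmomatic 0.36 with no role, and the quantifier is not stated; the form of the identifiers is that of the Trinity assembler. No count test was possible on such values and no read depth is known, so no intervals are given. Groups follow the titles of the samples. With 1 library per group no test was run: log2 ratios were computed with a pseudocount of 1 (Python 3.11.15, pandas 2.3.3), which understates changes of low genes, and the genes that reached 10 in either library and differed by 2-fold or more were counted. The counting step, which is no test of these genes, was checked on simulated ratios of known size. The named genes are the 2 highest and 2 lowest ratios among these. The place of TRINITY_DN133561_c0_g3 was a near tie with TRINITY_DN195_c7_g1 and depends on the pseudocount. The comparison, the minimum value and the lists were chosen with earlier results of these data known. Alternatives were pseudocounts of 0.1 and 5, minimum values of 5, 20 and none, scaling to a common median or by the median of ratios, and sums over assembly components.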

Additional observations from a re-analysis of the deposited data

Results flagged for a closer look

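TRINITY_DN79_c0_g3 had a log2 ratio of 5.73 in omul, while its ratio of -0.18 in peled lay within 2-fold, with values of 704 in acute and 795 in control peled. Of the 97 genes higher in acute omul 1 (1.03%) was at least 2-fold lower in acute peled, at 0.32 in acute and 2.04 in control peled. Over the 1190 genes at the minimum value in omul this share was 6.64%. Of the 125 genes lower in acute omul 7 (5.6%) were at least 2-fold higher in acute peled, against 9.24% of the 1190 genes. Both counts thus lay below the share over all genes. The 7 genes had median values of 11.4 in acute and 30.5 in control omul and of 4.76 in acute and 0.76 in control peled. Of these 7 genes 3 reached a value of 10 in peled. Each species has 1 library per group, so these differences were not tested.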

How the results depend on the processing

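With a pseudocount of 0.1 or 5, a minimum value of 5, 20 or none, either scaling or sums over assembly components, lower genes outnumbered higher genes at 2-fold and higher genes outnumbered lower genes at 4-fold in each case. The 2-fold counts left the 1.5-fold range in some of these settings. A minimum of 20 gave 53 higher and 66 lower of 703 genes, and no minimum gave 163 and 201 of 2184. A pseudocount of 5 gave 76 lower of 1190 genes. The median ratio turned from -0.06 to 0.0050 when the libraries were scaled to a common median, with 106 higher and 114 lower genes. The median peled ratio of the genes higher in omul, 0.48 as reported, was 0.76 with a pseudocount of 0.1, 1.27 with a minimum of 20, 0.28 with none and 0.67 with scaling by the median of ratios. That of the lower genes moved by at most 0.1. Larger folds depended on the pseudocount: at 8-fold there were 24 higher and 12 lower genes with 0.1, and 7 and 1 with 5. Sums over assembly components also lowered the higher counts, to 34 at 4-fold and 14 at 8-fold, beside 20 and 7 lower. Of 16 ratios of the named genes under these settings 9 moved by at most 1.5-fold, 7 by more (all under another pseudocount) and 0 changed sign. No paired analysis was possible because each group has 1 library. With 1 library a side none could be left out.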
